A study of Mus musculus with 24 samples.

Results

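Very broad H3K4me1 domains are long stretches of chromatin carrying monomethylated lysine 4 of histone H3. They were taken here as H3K4me1 peaks of at least 10000 bp in the list of doxycycline-treated cells or in that of untreated cells, with overlapping ones merged to 1 region. There were 1667 such domains among the 128170 merged H3K4me1 regions of both lists. The cells were mouse TgSpi1 erythroleukaemic cells (#763), a line of bone marrow leukaemic cells kept in culture with erythropoietin (EPO). They carry a transgene that overexpresses Spi1, the gene of the ETS transcription factor SPI1 (PU.1), and a doxycycline-inducible short hairpin RNA against Spi1. Treated cultures had doxycycline for 48 h, and untreated cultures had none. Both groups carry the transgene and the hairpin, and both come from the same line. No doxycycline group without the hairpin was used, so effects of the drug and of lower SPI1 cannot be told apart. The series holds 24 samples, and 4 deposited peak lists were used, 1 per mark and condition.

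H3K4me1 is laid down at enhancers, whether active or poised, and around active promoters. H3K27ac, the acetyl mark on lysine 27 of the same histone, is found at active enhancers and promoters. Long runs of enhancer chromatin often lie at genes that define a cell type, such as the globin loci and the genes of haem synthesis and of the membrane skeleton in red cell precursors. SPI1 drives myeloid and B cell genes, and its overexpression holds erythroid precursors back from maturation.

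The domains were chosen by H3K4me1 peak width, so all H3K4me1 values below describe the selection and carry no test. H3K27ac came from other libraries and was not used to choose the domains. The sample titles place the libraries of both marks in ChIP2, which has a single input title per condition. Each H3K27ac list stands for replicates 1 and 2 together and each H3K4me1 list for replicate 1. With 1 list per condition there is no replicate error and no test, and each difference is a difference between lists. The values are lengths covered by peaks, so a longer length can come from a higher signal, from more reads or from a looser call. In a bulk population, more marked cells and more mark per cell cannot be told apart. The erythroid label was checked against markers: H3K27ac lay at 10 of 10 erythroid markers in the treated list and at 8 of 10 in the untreated list. It lay at 3 of 8 myeloid markers in each list, and 5 erythroid markers and 0 myeloid ones had a very broad domain. Of the 4 B cell, 4 T cell and 4 stromal markers, 1, 3 and 0 had H3K27ac in the treated list, against 1, 3 and 1 in the untreated list.

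Sequences that lie in domains with differing H3K27ac are shown first. The erythroid microRNA pair miR-144 and miR-451a, which is transcribed as 1 unit, lies in a domain over Eral1 on chromosome 11 that had 1 of the largest H3K27ac differences. These are its mature RNAs from RefSeq, with the seed (bases 2 to 8) in capitals.
mmu-miR-144-5p: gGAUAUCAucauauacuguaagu
mmu-miR-144-3p: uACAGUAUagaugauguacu
mmu-miR-451a: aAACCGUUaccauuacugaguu

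The seeds of these 3 RNAs differ from each other. Promoter windows of RefSeq (250 bases before to 50 after a start site, build GRCm38.p6, the assembly that mm10 names) were then searched within the domains. Capitals mark 3 motifs on either strand, so their reverse complements are in capitals too. These were the GATA motif AGATAA, the core GAGGAA of SPI1 sites and the KLF motif CACCC. The 4 windows that belong to the fixed gene lists and had H3K27ac in one list alone are printed, followed by that of Klhl6, which lies in a domain with 1 of the largest H3K4me1 differences. H3K27ac covered the whole window in the treated list alone for Alas2, Sox6 and Epb41, and in the untreated list alone for Hdac7 and Klhl6. The Sox6 and Epb41 windows lie inside the gene bodies, at internal start sites and not at the outermost ones.
Alas2 promoter window, chrX:150547167-150547466, plus strand: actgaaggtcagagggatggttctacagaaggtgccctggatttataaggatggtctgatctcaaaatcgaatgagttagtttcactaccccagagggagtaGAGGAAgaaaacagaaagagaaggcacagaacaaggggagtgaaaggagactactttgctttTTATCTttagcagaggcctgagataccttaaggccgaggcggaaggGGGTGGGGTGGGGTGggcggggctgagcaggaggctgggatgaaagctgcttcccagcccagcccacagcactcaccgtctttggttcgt
Sox6 promoter window, chr7:115846091-115846390, minus strand: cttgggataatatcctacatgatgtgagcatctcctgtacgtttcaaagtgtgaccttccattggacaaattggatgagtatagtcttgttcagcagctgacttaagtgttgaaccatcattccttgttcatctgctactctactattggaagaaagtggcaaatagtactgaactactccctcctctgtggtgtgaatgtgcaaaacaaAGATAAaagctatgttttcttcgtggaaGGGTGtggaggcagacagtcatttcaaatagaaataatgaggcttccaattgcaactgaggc
Epb41 promoter window, chr4:132072048-132072347, minus strand: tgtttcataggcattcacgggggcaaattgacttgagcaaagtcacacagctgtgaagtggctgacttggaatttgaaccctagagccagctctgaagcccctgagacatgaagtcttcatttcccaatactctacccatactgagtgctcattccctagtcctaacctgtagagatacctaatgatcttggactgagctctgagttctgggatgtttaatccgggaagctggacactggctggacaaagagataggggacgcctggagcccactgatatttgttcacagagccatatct
Hdac7 promoter window, chr15:97814814-97815113, minus strand: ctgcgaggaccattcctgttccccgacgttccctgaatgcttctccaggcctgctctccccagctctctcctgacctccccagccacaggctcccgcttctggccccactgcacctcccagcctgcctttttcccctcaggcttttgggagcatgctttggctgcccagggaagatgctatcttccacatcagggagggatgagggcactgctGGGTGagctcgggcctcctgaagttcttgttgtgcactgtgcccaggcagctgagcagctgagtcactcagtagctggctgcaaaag
Klhl6 promoter window, chr16:19983000-19983299, minus strand: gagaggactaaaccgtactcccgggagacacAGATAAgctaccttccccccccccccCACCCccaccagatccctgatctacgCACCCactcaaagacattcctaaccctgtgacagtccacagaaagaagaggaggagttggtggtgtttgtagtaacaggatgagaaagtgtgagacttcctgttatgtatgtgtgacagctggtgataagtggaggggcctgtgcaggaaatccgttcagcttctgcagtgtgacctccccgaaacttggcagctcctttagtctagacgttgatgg

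The Alas2 window, at the gene of the erythroid enzyme that starts the haem pathway, holds all 3 motifs. The Sox6 and Klhl6 windows hold the GATA and KLF motifs, the Hdac7 window holds the KLF motif, and the Epb41 window holds none of the 3. A match describes letters and not a bound site.

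The domains had a median width of 12803 bp, with a mean of 14922 bp and a range of 10003 to 93803 bp. Widths of at least 20000 bp were reached by 216 domains, and widths of at least 50000 bp by 10. Together the domains spanned 24.9 Mb. Wide peaks were more numerous in the treated list, with 1494 of 101388 peaks (1.47%), against 978 of 119362 peaks (0.819%) in the untreated list. They held 11.3% of all H3K4me1 length in the treated list and 7.61% in the untreated list. The treated list as a whole had fewer, longer peaks, with 195.4 Mb covered in treated cells and 184.0 Mb in untreated cells. Depth is unknown, and its part in these widths was not tested.

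The domains fell into 3 classes. In 711 a peak of at least 10000 bp was present in the treated list alone, in 774 in both lists and in 182 in the untreated list alone. Most domains wide in 1 list held H3K4me1 in the other as well, broken into shorter peaks. In the 711 domains wide in the treated list alone, the untreated list held a median of 3 peaks, the widest with a median of 7053 bp, and covered a median of 86.2% of the domain. In the 182 domains wide in the untreated list alone, the treated list held a median of 2 peaks, the widest with a median of 7703 bp, and covered a median of 89.9%. The untreated gaps in the first class were short, with a median of 447 bp. The threshold therefore divides a continuous range, and the widths lie on a 50 bp grid. The narrowest members were 10003 bp wide and the widest peaks left out 9953 bp, in both lists. Of treated peaks, 312 were less than 1000 bp above the threshold and 463 less than 1000 bp below it, against 238 and 346 of untreated peaks.

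**Figure D1:**
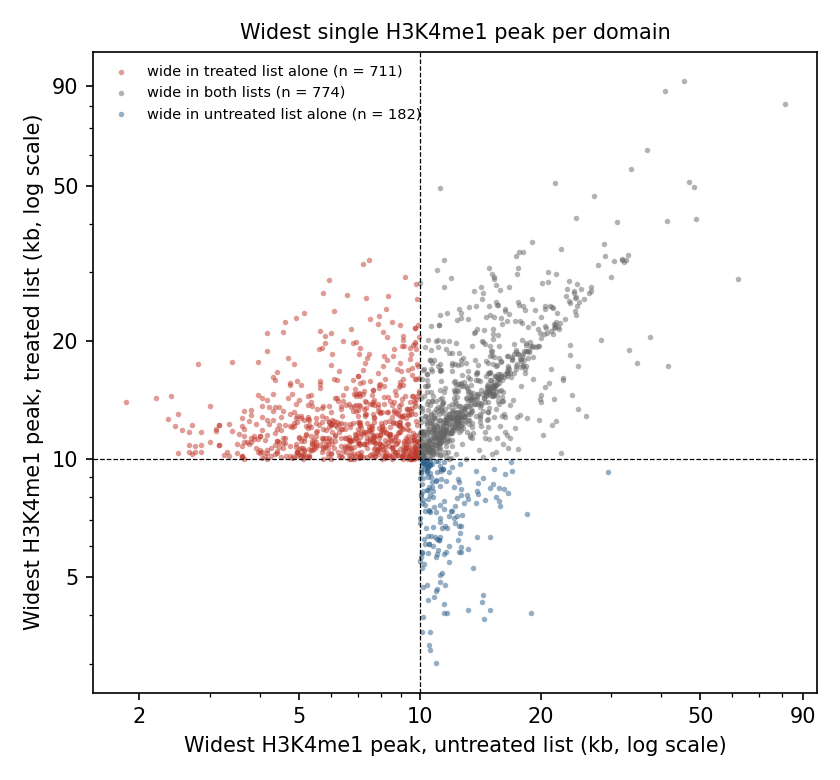
Width of the widest single H3K4me1 peak in each of the 1667 domains, in the treated list (vertical axis, kb, log scale) and in the untreated list (horizontal axis, kb, log scale). Points are domains, coloured by class, and the dashed lines mark the 10 kb threshold that defines the classes; points of the 711 domains wide in the treated list alone run up to the untreated threshold without a break.

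H3K4me1 length within the domains was longer in the treated list in 1239 domains, shorter in 408 and equal in 20. Over all merged regions 52.4% were longer and 45.4% shorter. The 711 and 182 domains of the single-list classes had to be longer and shorter by the way they were chosen. When treated lengths were scaled to the untreated total, 47.8% of domains were longer. The direction of the H3K4me1 difference thus depended on the scaling. The domains held 2109 H3K4me1 peaks in the treated list and 3628 in the untreated list, over 24.4 Mb treated and 22.8 Mb untreated.

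Nearly every domain carried H3K27ac. Of the 1667 domains, 1631 (97.8%, exact 95% interval 97.0 to 98.5) overlapped an H3K27ac peak in at least 1 list, against 86.1% of the 6629 other H3K4me1 regions of 5 to 10 kb and 20.1% of all other regions. Wider regions offer more room for an overlap. As a share of length, H3K27ac peaks covered 36.1% of the domains in the treated list and 34.1% in the untreated list. In regions of 5 to 10 kb the shares were 25.8% treated and 25.01% untreated, and in all other regions 12.8% treated and 13.2% untreated. The acetylated share was thus larger in the domains than in narrower regions in both lists. Within the domains, the acetylated share showed almost no relation to width, with a Spearman rho over 1667 domains of 0.11 in the treated list and 0.08 in the untreated list.

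Between the conditions, H3K27ac length in the domains went in both directions. It was longer in the treated list in 857 domains, shorter in 763 and equal in 47, of which 36 had none in either list. Over all merged regions 9.36% were longer and 10.3% shorter by any amount. The median per domain was 4753 bp in treated cells and 4212 bp in untreated cells. Past 1.5-fold and 500 bp, H3K27ac was longer in 373 domains (22.4%, exact 95% interval 20.4 to 24.5) and shorter in 301 (18.1%, 16.2 to 20.0). The background was 2.63% longer and 3.47% shorter over all merged regions, most of which held no H3K27ac. Over regions of 5 to 10 kb it was 19.1% longer and 18.3% shorter. The overall shares in the domains lie near those of the narrower regions and are not a result about very broad domains. The intervals cover counting error over domains only.

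The H3K27ac differences followed the H3K4me1 classes. Of the 711 domains wide in the treated list alone, 282 (39.7%, 36.05 to 43.4) were longer past the fold and 44 (6.19%) shorter. Of the 774 wide in both lists, 85 (10.98%) were longer and 153 (19.8%) shorter. Of the 182 wide in the untreated list alone, 6 (3.30%) were longer and 104 (57.1%, 49.6 to 64.4) shorter. Median H3K27ac length was 4256 bp treated and 2762 bp untreated in the first class, 5907.5 bp treated and 5916.5 bp untreated in the domains wide in both lists, and 1604.5 bp treated and 3682.5 bp untreated in the domains wide in the untreated list alone. H3K27ac thus differed the same way as the width in both single-list classes. Its libraries were other ones, but those of both marks are titled ChIP2, and the part of shared handling was not tested. Both treated lists as a whole had fewer and longer peaks. Median peak width was 1353 bp treated and 1003 bp untreated for H3K27ac, and 1153 bp and 903 bp for H3K4me1. The part of this in the shared direction was not tested.

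The same pattern was present in narrower regions. Regions with no 10000 bp peak were grouped in the same way by a 5000 bp peak, a comparison chosen after the domain values were seen. H3K27ac was longer past the fold in 32.8% and shorter in 7.38% of the 2385 regions wide in the treated list alone. The shares were 15.3% and 21.3% in the 2776 regions wide in both lists, and 1.40% and 43.0% in the 855 wide in the untreated list alone. The domains wide in the untreated list alone had a larger shorter share than their narrower counterparts, with 49.6 to 64.4% against 39.7 to 46.4% as exact intervals. For domains wide in the treated list alone the longer share was 36.05 to 43.4%, against 30.9 to 34.7%. Regions without H3K27ac in either list cannot pass the fold, and they were more common among the narrower counterparts. H3K27ac was present in 97.8% of the domains wide in the untreated list alone, against 78.8% of their counterparts. For the treated list alone the shares were 96.1% and 83.6%. Of regions with H3K27ac, 104 of 178 domains wide in the untreated list alone were called shorter, against 368 of 674 counterparts. For the treated list alone, 282 of 683 domains were called longer, against 782 of 1994 counterparts. On that base the shares of domains and counterparts lie closer together. The part of regions without H3K27ac in the larger called shares was not tested. No test between lists is possible, and the relation of both marks is not particular to very broad domains.

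**Figure D2:**
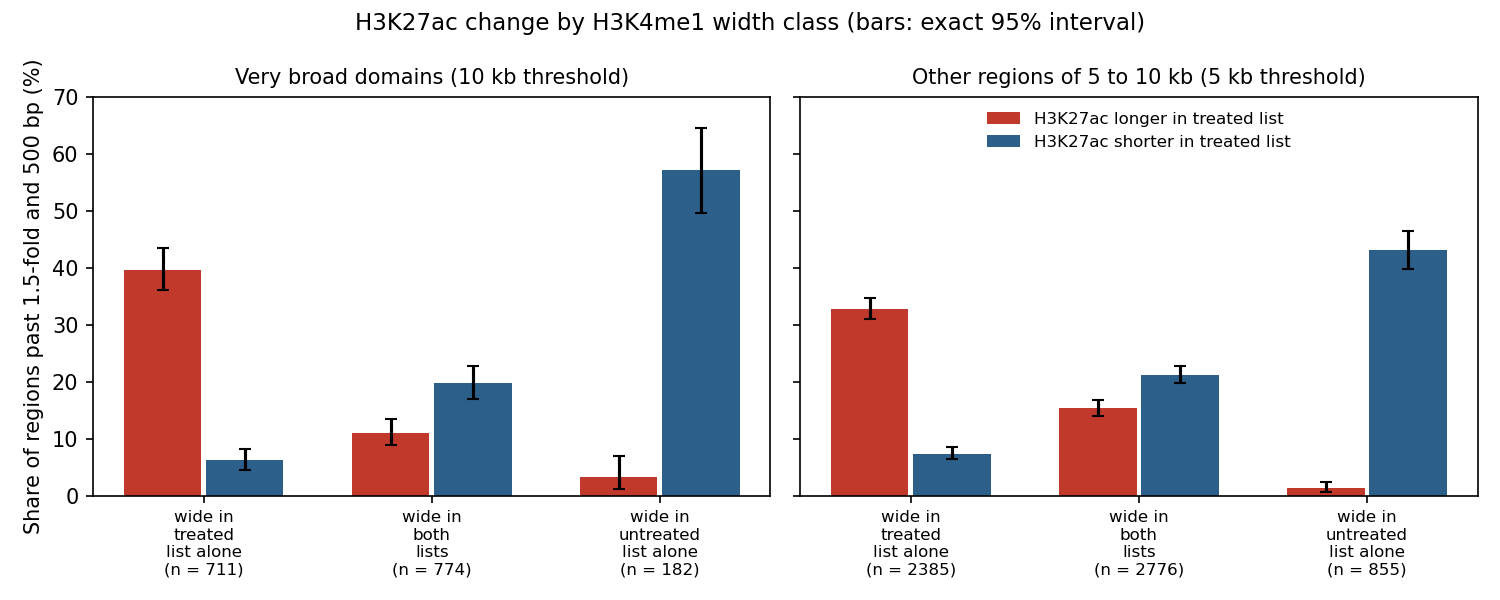
Share of regions whose H3K27ac length was longer (red) or shorter (blue) in the treated list by at least 1.5-fold and 500 bp, with exact 95% intervals as error bars, in the 3 width classes of the very broad domains (left) and in the same classes of other regions of 5 to 10 kb (right). In both panels the red bar is the taller in regions wide in the treated list alone and the blue bar in regions wide in the untreated list alone.

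**Figure D3:**
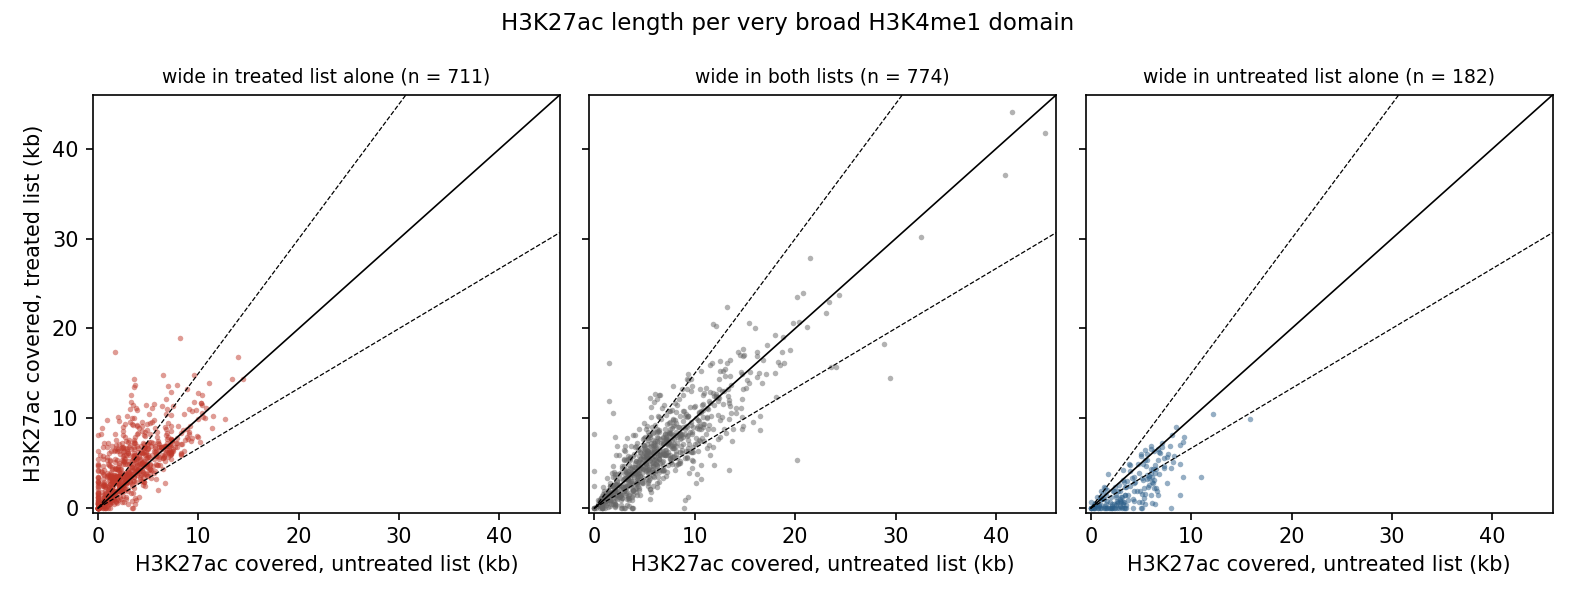
H3K27ac length per domain in the treated list (vertical axis, kb) and in the untreated list (horizontal axis, kb), 1 point per domain, in the 3 width classes. The solid line marks equal lengths and the dashed lines 1.5-fold; points of the 711 domains wide in the treated list alone lie mostly above the solid line and those of the 182 wide in the untreated list alone mostly below it.

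Within each class, the treated minus untreated differences of both marks also ran together across domains. Spearman's rho was 0.51 over the 711 domains wide in the treated list alone, 0.43 over the 774 wide in both and 0.35 over the 182 wide in the untreated list alone. Over all 1667 domains it was 0.59. The differences share 4 lists and the domain's width, so the values are descriptions. H3K27ac differed both in stretches without untreated H3K4me1 peaks and in stretches under them. In the 711 domains wide in the treated list alone, the bases in untreated H3K4me1 gaps carried treated H3K27ac over 11.5% and untreated H3K27ac over 5.49% of their length. The bases under untreated H3K4me1 carried treated H3K27ac over 41.5% and untreated H3K27ac over 30.0%.

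Among the 10 domains with the largest H3K27ac difference towards treated cells, Hbb-y was the member of the erythroid gene lists. The domain over Nprl3 (chr11:32239699-32259601), a GATOR1 subunit gene whose introns hold the alpha-globin enhancers, had 17362 bp of H3K27ac in treated cells and 1662 bp in untreated cells. Its treated acetylation lay in 4 peaks, the widest of 12153 bp, and its untreated acetylation in 4 peaks, the widest of 853 bp. The Nprl3 domain was thus nearly filled in the treated list and held scattered short peaks in the untreated list. The domain over Eral1 (chr11:78059949-78080001), a mitochondrial ribosome assembly gene, contains the microRNAs printed above. It had 16106 bp of H3K27ac in treated cells, with 1 peak of 15003 bp, and 1456 bp in untreated cells. The hairpins of Mir144, at chr11:78073005-78073070, and Mir451a, at chr11:78073170-78073241, lay inside the treated peak of 15003 bp and in no untreated peak. H3K4me1 was wide at Eral1 in both lists, with 20053 bp treated and 17315 bp untreated, so this difference was mainly one of acetylation.

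The domain at Hbb-y (chr7:103851549-103879801), an embryonic beta-like globin gene, reaches into the stretch towards Olfr66 where the beta-globin locus control region lies. H3K27ac covered 22362 bp of it in treated cells and 13174 bp in untreated cells. A treated peak of 15753 bp stood where the untreated list had several, the widest of 4903 bp. Acetylation of the globin control region was therefore already long in untreated cells and ran together in treated cells. Btg2, an antiproliferative gene, had 2 adjoining domains, both wide in the treated list alone. The one starting at 134052399 on chromosome 1 had 12621 bp of H3K27ac in treated cells and 3315 bp in untreated cells. Over both Btg2 domains the lengths were 27489 bp treated and 9786 bp untreated.

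The other domains of this group lay at genes with varied roles, and the lengths are again those of H3K27ac. Pip5k1b, a phosphoinositide kinase gene, had 18974 bp in treated cells and 8212 bp in untreated cells. Arsg, a lysosomal sulfatase gene, had 14377 bp treated and 3615 bp untreated. Chst10, a sulfotransferase gene, had 13671 bp treated and 3653 bp untreated, and its H3K4me1 difference, 23653 bp treated and 11518 bp untreated, was the largest of all domains. Ssh1, which encodes a cofilin phosphatase, had 13518 bp treated and 3615 bp untreated, and Fhdc1, a formin gene, 9809 bp treated and 906 bp untreated. A domain over the non-coding genes E230029C05Rik and Gm32164, whose nearest protein-coding gene, 57773 bp away, was the Polycomb gene Eed, had 11918 bp treated and 1453 bp untreated. Of these 10 domains, 7 were wide in the treated list alone and 3 in both lists.

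The 10 domains with the largest H3K27ac loss were led by Heg1 and Cdk6. Heg1, a transmembrane receptor gene (chr16:33754849-33788001), had 14521 bp of H3K27ac in treated cells and 29415 bp in untreated cells. Cdk6, the gene of a G1 cyclin-dependent kinase, had 5356 bp in treated cells and 20168 bp in untreated cells in its domain at chr5:3491649-3517601. A single untreated H3K27ac peak of 11503 bp in the Cdk6 domain had no treated counterpart. All 3 domains at Cdk6 were shorter in H3K27ac past the fold, with 14524 bp treated and 37239 bp untreated in all. The domain at chr5:3480299-3490901 had 0 bp in treated cells and 2256 bp in untreated cells, and 5056 bp of H3K4me1 treated and 10603 bp untreated.

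Rap1a, a small GTPase gene (chr3:105745449-105782901), had no H3K27ac peak in treated cells and 8 peaks over 8874 bp in untreated cells. H3K4me1 at Rap1a stayed wide in both lists, with 35015 bp treated and 37453 bp untreated. This domain kept its H3K4me1 and was listed without acetylation in treated cells. Tec, which encodes a tyrosine kinase of blood cells, had 3 neighbouring domains with H3K27ac shorter past the fold in each. The domain at chr5:72808349-72823151 had 1253 bp of H3K27ac treated and 9271 bp untreated. The domain at chr5:72837799-72859401 had 3265 bp treated and 10606 bp untreated, and the one between them 0 bp treated and 703 bp untreated. H3K4me1 was also shorter at all 3 Tec domains, with 14856 bp treated and 21603 bp untreated at the widest of them.

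Other domains with long acetylation in untreated cells lay at signalling genes and a lymphoid regulator. Ikzf1, the Ikaros zinc finger gene, had 15765 bp of H3K27ac treated and 24083 bp untreated in its longer domain (chr11:11709199-11744601). Ptpre, a receptor tyrosine phosphatase gene, had 18318 bp treated and 28815 bp untreated, and Inpp5b, an inositol phosphatase gene, 4215 bp treated and 13427 bp untreated. These domains at Ikzf1, Ptpre and Inpp5b were wide in both lists. Rabgap1l, a Rab GTPase regulator, had 856 bp treated and 9027 bp untreated. Xylt1, a xylosyltransferase gene, had 3 bp treated and 7965 bp untreated, and a domain whose nearest gene, 117276 bp away, was Max had 8724 bp treated and 16468 bp untreated. Of these 10 domains, 9 were wide in both lists and 1, at Xylt1, in the untreated list alone.

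**Figure D4:**
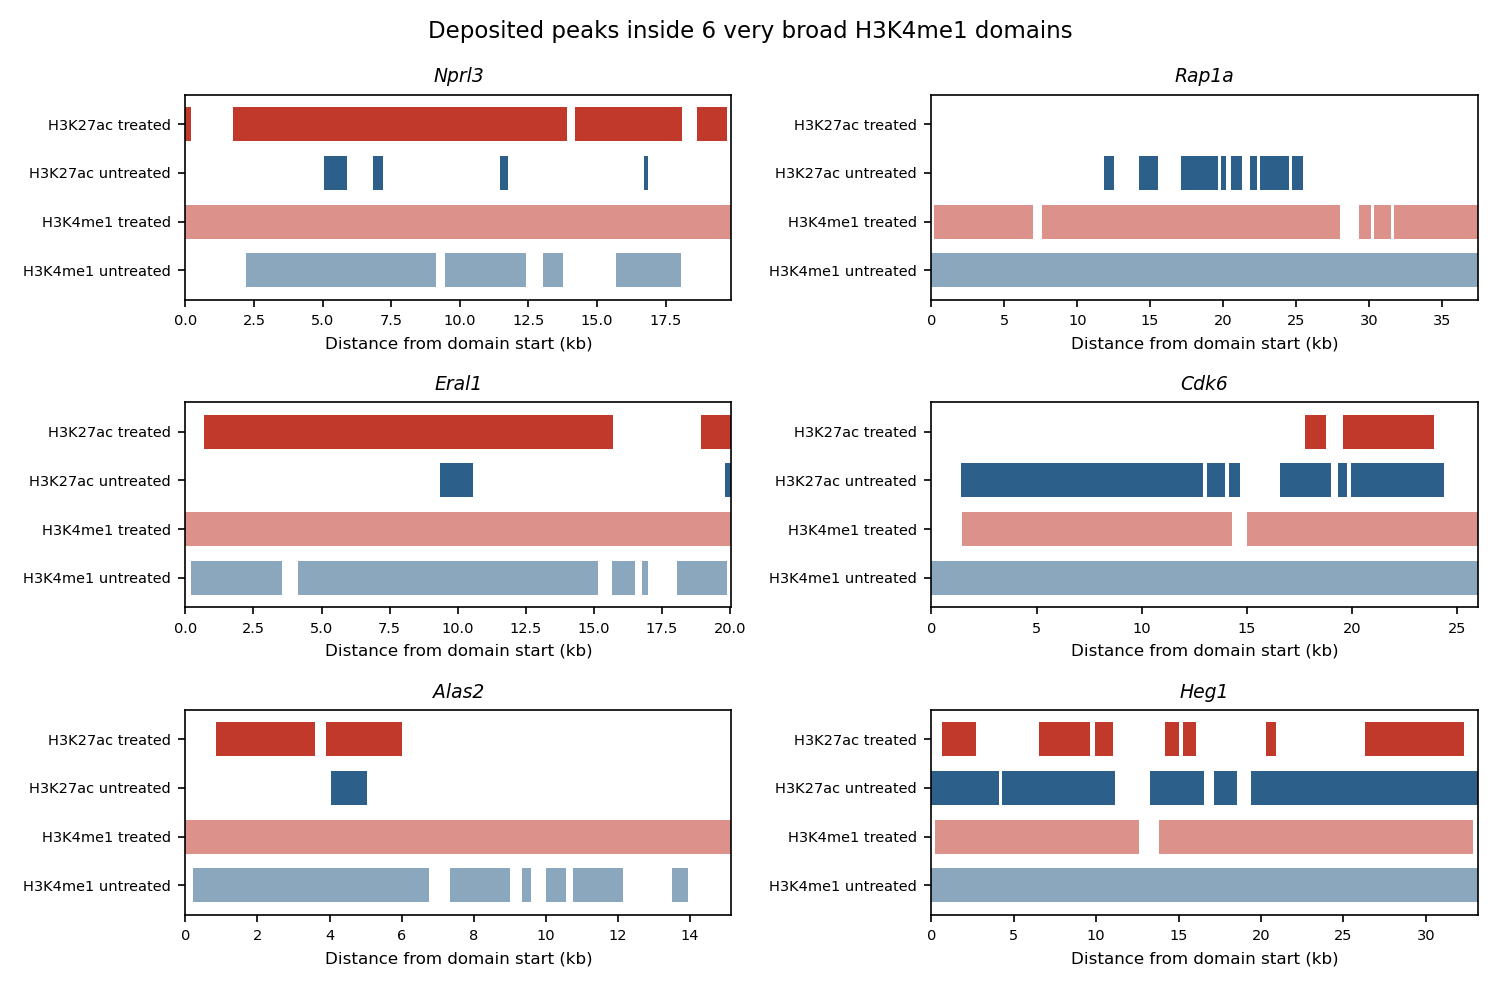
Deposited peaks inside 6 domains, drawn as blocks along the distance from the domain start (kb), with treated (red) above untreated (blue) for H3K27ac and then for H3K4me1 (pale). Left: domains with longer H3K27ac in the treated list, at Nprl3, Eral1 and Alas2; right: domains with shorter H3K27ac in the treated list, at Rap1a, Cdk6 and Heg1, where H3K4me1 stays over most of the domain in both lists.

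The largest H3K4me1 differences, which follow from the selection, lay beside H3K27ac differences of the same sign in all 10 named domains. Some of these share a gene, as at Cpeb4 and Tec. By any amount, H3K27ac was longer in 487 of the 711 domains wide in the treated list alone. It was shorter in 149 of the 182 wide in the untreated list alone and in 423 of the 774 wide in both. Slc4a1, the band 3 anion exchanger gene of the red cell membrane (chr11:102360649-102378151), had 17503 bp of H3K4me1 treated and 7512 bp untreated, and 3 H3K27ac peaks over 4109 bp treated and none untreated. Its domain overlaps the long non-coding RNA gene Bloodlinc. Cpeb4, a translational regulator gene, had 28753 bp of H3K4me1 treated and 18024 bp untreated, with 4262 bp of H3K27ac treated and 0 bp untreated. A second domain 22153 bp from Cpeb4 had 21053 bp of H3K4me1 treated and 12068 bp untreated, with 11071 bp of H3K27ac treated and 3159 bp untreated. St3gal6, a sialyltransferase gene, had 29253 bp of H3K4me1 treated and 20465 bp untreated, with 11415 bp of H3K27ac treated and 7465 bp untreated. In the other direction, Klhl6, a kelch family gene of B cells (chr16:19972699-19986251), had 7409 bp of H3K4me1 treated and 13553 bp untreated, with no H3K27ac peak treated and 3 over 3259 bp untreated.

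The 10 widest domains were wide in both lists and within the fold in acetylation. H3K27ac was shorter in the treated list in 9 of them and longer in 1, at St7, with 27804 bp treated and 21495 bp untreated. Of all 774 domains wide in both lists, 423 were shorter and 344 longer by any amount. Some of the differences were small, as at Pip4k2a, with 22921 bp treated and 23386 bp untreated. Mbnl1, a splicing regulator gene, had the widest, 93803 bp, with 10618 bp of H3K27ac treated and 14139 bp untreated. The next, 88553 bp, lies in the non-coding gene Pvt1, 96038 bp from Myc, and had 23695 bp treated and 24386 bp untreated. The third covered 81103 bp of Bcl11a, a repressor of fetal globin genes, and was acetylated over 41789 bp treated and 44872 bp untreated. The others besides St7 lay at Nfia, Cyth3, Ago2, Epb41, Dapp1 and Pip4k2a. Ago2 encodes the Argonaute protein that cleaves the miR-451 precursor, and Epb41 encodes protein 4.1R of the membrane skeleton.

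At the other end, 36 domains had no H3K27ac in either list. The widest, 17303 bp, also lay in Pvt1, 78188 bp from Myc, followed by domains at Dyrk1a, a kinase gene, and near Fam174a. The domain of Tfrc, the transferrin receptor gene, had 13653 bp of H3K4me1 treated and 11853 bp untreated with no H3K27ac, while H3K27ac within 5 kb of the gene covered 7503 bp treated and 6453 bp untreated. The domain of Tmod1, the tropomodulin gene of the membrane skeleton, had 13003 bp of H3K4me1 treated and 7865 bp untreated, also without H3K27ac. Further ones lay at Stk38l, Mark2, Sppl3 and Slc16a1. Of the 36, 28 were wide in the treated list alone.

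Red cell genes had domains more often than genes at large. Within 5 kb of the gene body, 29 of 49 globin, haem and membrane genes (59.2%) and 15 of 20 erythroid transcription factor genes (75%) had a domain, against 7.39% of 21887 protein-coding genes. Longer genes offer more room for a domain, and the lists were chosen with earlier results of these data known. The transcription factor list also holds Ikzf1, named above as a lymphoid regulator, so its share is not of red cell factors alone. Of the other lists, 15 of 38 cytokine and erythropoietin signalling genes had a domain, 10 of 35 cell cycle genes, 7 of 27 Polycomb and HDAC genes, 4 of 18 megakaryocyte genes and 4 of 27 stem and progenitor genes. Among markers of other cells the counts were 4 of 52 myeloid genes, 1 of 17 T cell genes, 0 of 17 B cell genes and 0 of 17 stromal and endothelial genes. Housekeeping genes had 1 of 24. Myeloid, T cell and housekeeping shares lie near the share over all genes.

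In the red cell list most genes with a domain had more H3K27ac length in the treated list. Of the 29 globin, haem and membrane genes with a domain, 24 had a longer and 3 a shorter length in the treated list, and 11 were longer and 1 shorter past the fold. By any amount, 857 of all 1667 domains were longer and 763 shorter, and 487 and 191 of the 711 wide in the treated list alone. Past the fold, 22.4% of all domains were longer and 18.1% shorter, against 39.7% and 6.19% of those wide in the treated list alone. Many of these genes had their domains in that class, and their counts past the fold lie near its shares. The counts are of genes, and the adult alpha-globin genes Hba-a1 and Hba-a2, near-identical copies between which reads may be shared, both count 1 domain (chr11:32284049-32295901). It had 3 H3K27ac peaks over 6309 bp treated and none untreated, and 11853 bp of H3K4me1 treated and 4662 bp untreated. Alas2 (chrX:150546049-150561201) had 4856 bp of H3K27ac treated and 1003 bp untreated. The treated peak of 2753 bp at Alas2 spans the promoter window printed above, and the untreated peak lies downstream of it. Alas2 thus had its start site acetylated in the treated list alone.

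The other haem genes past the fold were Uros, with 8559 bp treated and 2509 bp untreated, and Cpox, with 11418 bp treated and 6915 bp untreated, both of the porphyrin pathway. Abcb10, a mitochondrial transporter gene of haem synthesis, had 10762 bp treated and 6471 bp untreated. Dmtn, the dematin gene of the membrane skeleton, had 8259 bp treated and 1709 bp untreated, and Aqp1, a water channel gene, 6703 bp treated and 2759 bp untreated. Erfe encodes erythroferrone, the erythroid hormone that lowers hepcidin. It had 10306 bp treated and 2859 bp untreated. The member shorter past the fold was Add2, a beta-adducin gene, with 2603 bp treated and 4462 bp untreated. Fech, the ferrochelatase gene, differed little and had 7556 bp treated and 7362 bp untreated.

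Of the 15 erythroid transcription factor genes with a domain, 1 was longer past the fold and 2 shorter, with lengths summed over the domains of each gene. The shares over all domains, taken singly, were 22.4% and 18.1%. Sox6, which represses embryonic globin, had 4 domains, all wide in the treated list alone, with 21474 bp of H3K27ac treated and 5868 bp untreated in all. The Sox6 domain at chr7:115824449-115850301, which contains the start site printed above, had 11809 bp treated and 3309 bp untreated. The shorter ones were Klf13, a KLF family gene, and Nfe2, a beta-globin activator gene. Klf13 had 7330 bp treated and 12827 bp untreated, and Nfe2 had 7712 bp treated and 12521 bp untreated. Ikzf1, whose longer domain was shorter past the fold, was within the fold over both its domains, with 23021 bp treated and 32342 bp untreated. Gata1 had 5612 bp treated and 6462 bp untreated, and its cofactor Zfpm1 44124 bp treated and 41580 bp untreated. Bcl11a and Zfpm1 were among the longest acetylated domains in both conditions.

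**Figure D5:**
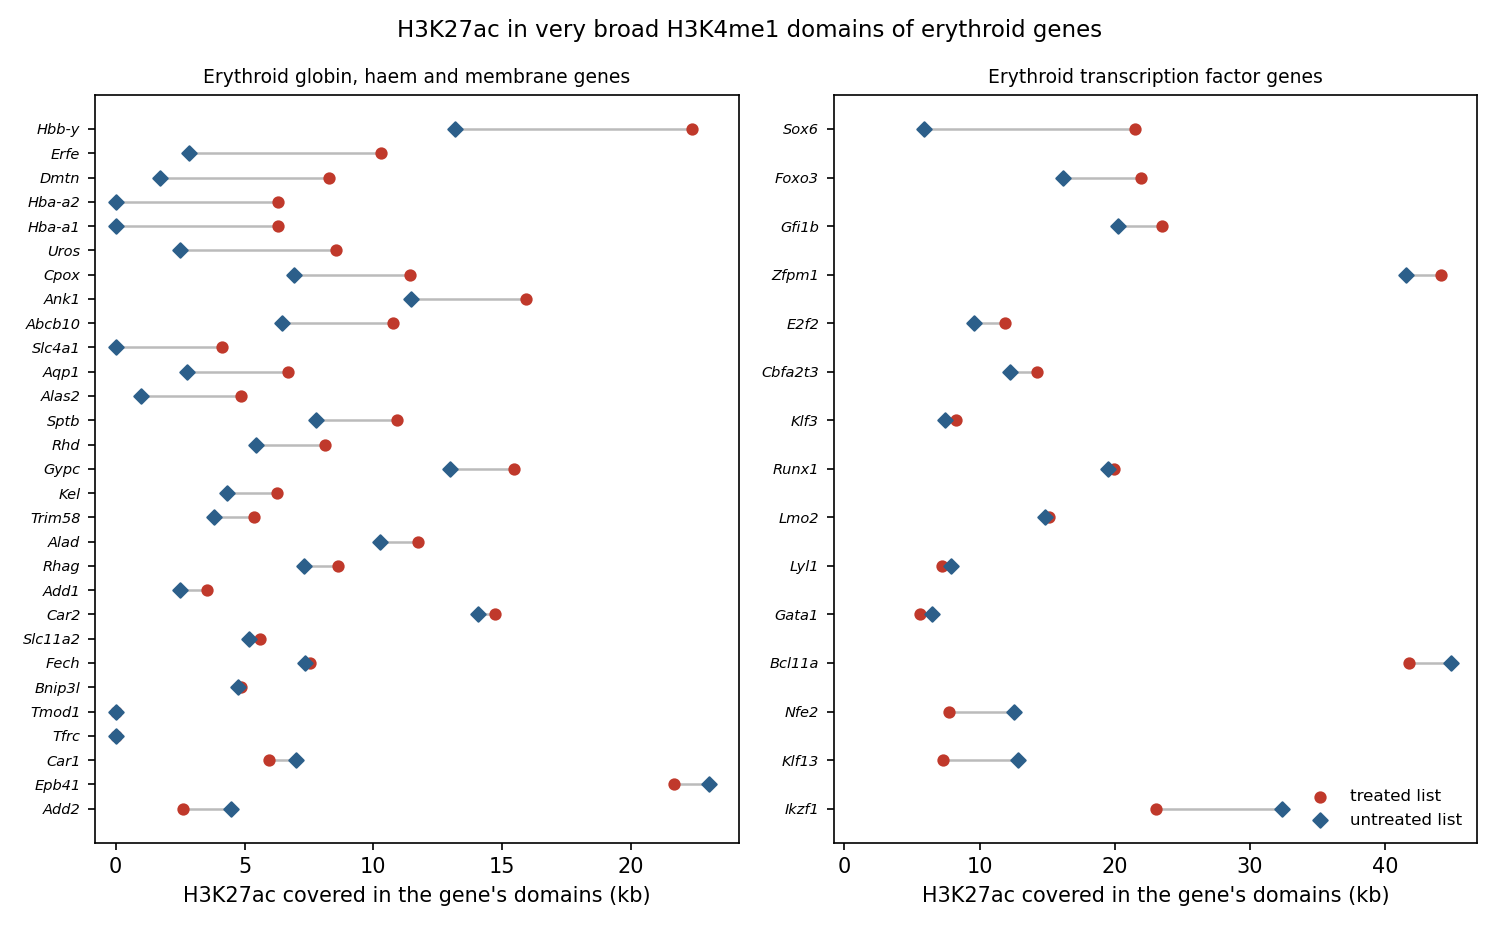
H3K27ac length (kb) summed over the very broad domains within 5 kb of each gene, in the treated list (red circles) and in the untreated list (blue diamonds), for 29 globin, haem and membrane genes (left) and 15 erythroid transcription factor genes (right), ordered by treated minus untreated. Most red circles on the left lie right of the blue diamonds; the domains of Tmod1 and Tfrc hold no H3K27ac in either list, and Hba-a1 and Hba-a2 share a domain.

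Of the 15 signalling genes with a domain, 5 had longer H3K27ac in the treated list and 10 shorter, and 1 was longer and 3 shorter past the fold. By any amount, 857 of all domains were longer and 763 shorter. Among domains wide in both lists, the class of many of these genes, 344 were longer and 423 shorter. Stat5a and Stat3 share a domain, which counts for both among the shorter ones. Past the fold, 2 of the 10 cell cycle genes were longer and 2 shorter, and 1 of the 7 Polycomb and HDAC genes was longer and 3 shorter, beside 22.4% longer and 18.1% shorter over all domains. Jak2, the kinase of the erythropoietin receptor, had no H3K27ac peak in its domain treated and 2 over 2806 bp untreated. Stat5b, a transcription factor of the same pathway, had 7512 bp treated and 13662 bp untreated, and the adaptor gene Grb2 2962 bp treated and 5724 bp untreated. Pim1, a kinase gene induced by STAT5, had 16371 bp treated and 12512 bp untreated, below the fold. Dusp8, a phosphatase gene of MAP kinases, was the member longer past the fold, with 7562 bp treated and 3112 bp untreated. Of cell cycle genes, Btg2 and Cdkn2a were longer past the fold, Cdkn2a with 2256 bp treated and 1409 bp untreated, and Cdk6 and E2f8 were shorter, E2f8 with 5362 bp treated and 9709 bp untreated. Of Polycomb and HDAC genes, Mta1, of the NuRD complex, was longer, with 5556 bp treated and 3506 bp untreated. Hdac7, Hdac3 and Ezh2 were shorter past the fold, Hdac7 with 12668 bp treated and 24877 bp untreated and Ezh2, the Polycomb methyltransferase gene, with 1859 bp treated and 3012 bp untreated.

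Of the 4 myeloid genes, Laptm5 was shorter, with 1506 bp treated and 6006 bp untreated, and Fgr, a Src family kinase gene, was longer, with 1956 bp treated and 653 bp untreated. Egr1 was within the fold and Csf2rb had no H3K27ac in its domain. Of the megakaryocyte genes, the platelet chemokine genes Pf4 and Ppbp, which share a domain, had 12915 bp treated and 7268 bp untreated. Itgb3, an integrin gene of platelets, had 553 bp treated and none untreated, and Mpig6b, a platelet receptor gene, had 3312 bp treated and 3515 bp untreated. Of stem and progenitor genes, Etv6 was shorter past the fold, with 4506 bp treated and 9759 bp untreated. Gata2 had 7253 bp treated and 7053 bp untreated.

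Most domains lay in gene bodies. Of the 1667, 85.3% overlapped a protein-coding gene, against 77.4% of regions of 5 to 10 kb and 59.7% of all other regions. Gene bodies enclosed 65.4% of the domains wholly. Gene ends lay within 1 kb of 38.9% of domains, and 16.0% held a RefSeq start site. For regions of 5 to 10 kb these shares were 37.7% and 12.6%. Start sites were those of genes with a promoter window, so their shares can be too low. Wider regions reach more genes by their length alone. In all, 1353 genes were overlapped, 183 by at least 2 domains and 12 by at least 4. Ankrd11, a chromatin regulator gene, had 5. Chromosome X held 27 domains (1.62%), against 2.97% of regions of 5 to 10 kb and 6.29% of all other regions.

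The domains held 351 RefSeq promoter windows. The windows searched belong to 17469 gene symbols, fewer than the 21887 protein-coding genes. Counts of windows and of start sites can therefore be too low. H3K27ac covered at least 150 bases of 239 windows in both lists, and none of 53 windows in either. It covered at least 150 bases in the treated list and none in the untreated list at 23 windows, and the reverse at 11. The other 25 were covered in part. In domains wide in the treated list alone 20 of 161 windows had treated and 3 had untreated acetylation alone. In domains wide in both lists 3 of 160 windows had treated and 3 had untreated acetylation alone, and in domains wide in the untreated list alone 0 of 30 had treated and 5 had untreated acetylation alone. Windows outside the domains were not counted. Several windows of the same gene are counted separately. Besides those printed, windows with treated acetylation alone included those of the theta-globin gene Hbq1b, Tmcc2 and Fhdc1, and windows with untreated acetylation alone those of Adcy7, an adenylate cyclase gene, and Psap, the saposin precursor gene.

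The GATA motif AGATAA, on either strand, was in 15.1% (11.5 to 19.3) of the 351 windows, against 9.65% of all 21238 windows and 10.1% of windows in other H3K4me1 regions. It was in 22.0% (13.6 to 32.5) of the 82 windows in domains with longer H3K27ac and in 16.7% of the 54 in domains with shorter H3K27ac. The SPI1 core GAGGAA was in 25.6% of windows in domains and in 27.4% of all windows. It was in 24.4% of windows in domains with longer H3K27ac and in 33.3% (21.1 to 47.5) of those in domains with shorter H3K27ac. The KLF motif CACCC was in 67.2% of windows in domains, 59.5% of all windows and 68.3% of windows in other H3K4me1 regions. Only the GATA share in domains had an interval that left out the shares over all windows and over other H3K4me1 regions, and the intervals of the longer and shorter domains overlapped for every motif. Median GC content, which bears on AT-rich motifs such as AGATAA, was 54.7% in windows of domains, 53% in those of domains with longer H3K27ac, 56.3% in all windows and 58.3% in windows of other H3K4me1 regions, and its part in the motif shares was not tested.

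Of 1005 RefSeq microRNA hairpins, 22 (2.19%) lay in 19 domains. H3K27ac was longer past the fold in 3 of these domains, at Eral1, Srrt and Rusf1, and shorter in 1, at Ncl, beside 22.4% longer and 18.1% shorter over all domains. Mir21a, an oncogenic microRNA gene, lay in a domain at Vmp1 with 7606 bp of H3K27ac treated and 8709 bp untreated. Mir144 and Mir451a thus lay in the domain with the largest acetylation difference among those that hold a hairpin.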

How the data were processed

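ChIP-seq peak lists were used as the authors deposited them, on the build mm10; bcl2fastq 2.17.1.14 and BWA are listed in the submitters' processing notes. Which program called the peaks, with which thresholds, and how H3K27ac replicates were joined is not given in the sources used here. Every deposited list holds start and end positions. The deposited H3K4me1 lists add a score per peak by the authors, used only to rank peaks, and small values that may be a p-value or q-value, which were not used. Positions were taken as 1-based and inclusive. Depth is unknown, and a list from more reads can hold wider peaks.

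Peaks on assembled chromosomes were kept. Covered bp per domain were summed per list with Python 3.11.15, numpy 2.4.6 and pandas 2.3.3, checked against bedtools 2.31.1 and tested on simulated data. A domain was called longer or shorter where the larger length was at least 1.5 times the smaller and 500 bp apart. Intervals are exact Clopper-Pearson (scipy 1.17.1). Figures used matplotlib 3.10.9. Genes came from a RefSeq table on GRCm38.p6, in which 342 of 343 listed symbols matched.

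Samples were grouped by their titles. Named were the 10 widest domains, the 10 with the largest H3K27ac difference in each direction, the 5 with the largest H3K4me1 difference in each direction, the 10 widest without H3K27ac, those of gene list members and those at the threshold. A domain took the name of the gene it overlaps most, or of the nearest gene. One domain is not reported here. The domains, gene lists and rules were chosen with earlier results of these data known. Alternatives were other width thresholds, merged peaks, subsets of peaks, scaled lengths, regions from 1 list, another fold, domain flanks and gene windows. The other groups of the series were not analysed here.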

Additional observations from a re-analysis of the deposited data

How the results depend on the processing

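No paired analysis was possible because each mark has 1 list per condition. The longer share in domains wide in the treated list alone and the shorter share in domains wide in the untreated list alone stayed above the opposite share of the same class under every alternative that gave these classes. The longer share in the first class was 30.4% with peaks within 1000 bp merged and 29.1% with a fold of 2, and the shorter share in the second was 38.2% and 45.1%, and 49.4% with a 12000 bp threshold. The number of domains was 2927 at 8000 bp, 1005 at 12000 bp, 3822 with merged peaks and 978 from the untreated list alone. The share with longer H3K4me1 was 65.2% with merged peaks, 47.8% with scaled lengths, 93.7% for regions from the treated list alone and 0% for those from the untreated list alone, which that list covers wholly by construction.

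The share of domains with longer H3K27ac by any amount, 51.4%, crossed 50% with merged peaks (45.7%), the better 50% of each list (48.95%) and regions from the untreated list alone (39.4%), and was 53.9% with equal peak numbers and 55.8% for regions from the treated list alone. It therefore has no stable direction. The share longer past the fold was 17.3% with merged peaks, 24.5% with equal peak numbers, 9.31% and 24.6% for regions from the untreated and the treated list alone, 14.1% with a fold of 2 and 19.8% with 2000 bp flanks. The share shorter past the fold was 15.9% at 12000 bp, 27.5% and 13.1% for regions from the untreated and the treated list alone, 11.2% with a fold of 2 and 14.9% with flanks. The causes were not tested. Of 159 values recomputed, 109 stayed within the interval or 1.5 times of the reported one. With no flank and with 20 kb flanks, 27 and 31 of the 49 red cell genes and 15 of the 20 erythroid transcription factor genes in each had a domain. Depth limits every width here and is unknown.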

Other observations

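Of 1646 pairs of adjacent domains on a chromosome, 123 lay within 5 kb of each other and 243 within 20 kb, and the median distance was 371272 bp. The genes with 4 domains besides Sox6 were Nfia, Sgms1, Mboat2, Gse1, Slc22a23, Ubash3b, Nt5c2, Plcl2, Asap1 and Sik3. Domains with a RefSeq start site had a larger acetylated share than those without, with 44.5% treated and 41.7% untreated over 267 domains, against 34.4% treated and 32.6% untreated over 1400 domains. The shares of domains with longer H3K27ac past the fold were 21.7% and 22.5% in these groups, and with shorter H3K27ac 15.0% and 18.6%.

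The acetylated length in the domains lay in fewer peaks in treated cells, with 4378 peaks over 8.98 Mb, against 5174 peaks over 8.48 Mb in untreated cells. The whole H3K27ac lists differed likewise, with 23341 treated and 28902 untreated peaks, and in domains wide in the treated list alone the treated list had more peaks, 1687 against 1633 in the untreated list. In domains wide in both lists the median number of H3K27ac peaks was 3 in treated cells and 4 in untreated cells, with 5.204 Mb and 5.36 Mb covered. The authors' score put 92.6% of the wide treated peaks and 91.7% of the wide untreated ones among as many top-scoring peaks of their list.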
